A study of Mus musculus with 22 samples.

Results

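Prrx1, Prrx2, Twist1, Twist2, Six2, Eya1 and Eya2 are transcription factors and cofactors known from the mesenchyme of the embryonic head, and they were taken by gene symbol from the gene list of the count matrices. All 7 symbols matched a single gene each among 32285 genes. Their levels were read across cell types and days in gastruloids, cultured aggregates that mouse embryonic stem cells build and in which early embryonic cell types arise.

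Every gastruloid was wild type and came from the E14Tg2A mouse embryonic stem cell line. Each started from 300 cells, aggregated for 48 h and then received 3 µM CHIR99021, a GSK3 inhibitor that activates Wnt signalling, so the agent was shared by all groups and no untreated group was compared. In the MULTI-seq experiments, cells carried a barcode of their own gastruloid before pooling, and the gastruloid was the unit of replication. MULTI-seq 3 gave 24 gastruloids at day 3 and 16 each at days 3.5, 4, 4.5 and 5, 11 of day 4 and 12 of day 4.5 came from MULTI-seq 2, and 24 of day 5 from MULTI-seq 1. All groups thus come from 1 cell line and 1 protocol, which limits them as a model of the embryonic head, and p-values measure the spread between gastruloids of such cultures.

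PRRX1 and PRRX2 are paired-type homeodomain proteins of mesenchyme in the head, limb bud and somites. TWIST1 and TWIST2 are basic helix-loop-helix proteins that bind E-boxes as dimers with E proteins and keep mesenchyme undifferentiated; TWIST1 is also a regulator of the epithelial to mesenchymal transition. SIX2 is a homeodomain factor of head and nephrogenic mesenchyme, and EYA1 and EYA2 are coactivator phosphatases that bind SIX2 and its relatives rather than DNA.

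In mm10 (GRCm38, GENCODE M21), Prrx1 (ENSMUSG00000026586) lies on the minus strand at chr1:163245119-163313710 and Prrx2 (ENSMUSG00000039476) on the plus strand at chr2:30834972-30881251. Twist1 (ENSMUSG00000035799) lies on the plus strand at chr12:33957671-33959829 and Twist2 (ENSMUSG00000007805) on the plus strand at chr1:91801461-91848028. Six2 (ENSMUSG00000024134) lies on the minus strand at chr17:85684277-85688274. Eya1 (ENSMUSG00000025932) lies on the minus strand at chr1:14168954-14310235 and Eya2 (ENSMUSG00000017897) on the plus strand at chr2:165595032-165771727.

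Promoter sequence was matched for 5 of the 7 members in a RefSeq-derived table on GRCm38.p6, and the bases upstream of the first annotated exon are shown for 4 of them, since the Prrx2 window lies within the annotated first exon. They are shown because all 7 members rose between days 3.5 and 4, while the Twist pair later moved in opposite directions within 1 cell type. Sequences run 5′ to 3′ on the gene's strand, and capitals mark TAATTA, a homeodomain core motif, or CCAAT, a promoter element searched for on both strands (CCAAT or ATTGG).
Prrx1, chr1:163313711-163313900, minus strand: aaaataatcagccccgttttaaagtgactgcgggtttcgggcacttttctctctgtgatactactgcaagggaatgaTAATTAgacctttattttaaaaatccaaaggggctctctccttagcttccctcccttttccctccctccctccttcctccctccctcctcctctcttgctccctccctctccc
Twist1, chr12:33957421-33957670, plus strand: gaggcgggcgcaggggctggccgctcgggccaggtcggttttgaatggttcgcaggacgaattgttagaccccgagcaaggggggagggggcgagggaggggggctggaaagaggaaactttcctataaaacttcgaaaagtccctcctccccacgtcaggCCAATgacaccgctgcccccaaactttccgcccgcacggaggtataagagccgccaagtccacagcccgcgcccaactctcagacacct
Twist2, chr1:91801211-91801460, plus strand: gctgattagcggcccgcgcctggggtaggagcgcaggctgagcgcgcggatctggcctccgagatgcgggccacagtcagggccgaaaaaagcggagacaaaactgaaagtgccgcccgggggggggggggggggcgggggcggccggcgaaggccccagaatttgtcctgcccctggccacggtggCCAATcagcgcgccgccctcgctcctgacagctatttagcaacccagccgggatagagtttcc
Six2, chr17:85688275-85688504, minus strand: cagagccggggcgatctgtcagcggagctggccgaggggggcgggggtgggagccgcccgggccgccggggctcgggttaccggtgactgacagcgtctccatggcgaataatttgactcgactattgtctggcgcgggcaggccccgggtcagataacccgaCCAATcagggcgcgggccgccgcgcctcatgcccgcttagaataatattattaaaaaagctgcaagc

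Twist1, Twist2 and Six2 each held 1 CCAAT, at 89, 63 and 67 bases before the end of the window, and Prrx1 held none; this motif was searched for after the sequences had been read. Over the first 250 bases of 32817 promoters, 33.8% held a CCAAT on either strand, and 32.2% did over the 230 bases shown for Six2. Prrx1 held 1 TAATTA in its 190 bases, against 4.03% of promoters over the same length. None of the 4 windows held an E-box (CANNTG, which reads the same on both strands), a motif present in 57.3% of promoters over 190 bases, 63.5% over 230 and 66.2% over 250. A match, or its lack, describes these letters and these windows only.

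Between days 3.5 and 4 of MULTI-seq 3, all 7 members rose in whole gastruloids. Levels are UMI counts scaled to the UMI total of a gastruloid (counts per 1e6, CPM), where a UMI marks 1 captured transcript molecule, and a call is an adjusted p under 0.05 in edgeR's quasi-likelihood test over all genes. In this comparison 31.1% of 13262 genes tested were called higher, so a rise was common across genes. In whole gastruloids, fewer cells of a type and less RNA per cell cannot be told apart. The days also differed in their mix of gastruloids that the authors named mesodermal or neural, and the fit was not adjusted for it.

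Prrx2 was between 1.72 and 45.1 CPM at day 3.5 (median 3.56, n = 16) and between 9.14 and 286 CPM at day 4 (median 199, n = 16). The fitted log2 fold change was 4.07 ± 0.47 (SE, edgeR adjusted p = 1.93e-08). All 16 gastruloids of day 4 lay above the median of day 3.5, yet the groups overlapped because 2 gastruloids of day 4 had stayed low. Those 2 were the gastruloids that the authors' cell table names neural at day 4, with 9.14 and 11.3 CPM, whereas the 14 named mesodermal held 108 to 286 CPM. At day 3.5 the 6 mesodermal gastruloids held 6.26 to 45.1 CPM and the 10 neural ones 1.72 to 7.09 CPM. The authors named these classes from the gastruloids' own cells, so the class difference is a description, and its part in the rise by day was not tested.

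Prrx1 had a smaller change than its paralogue. It ranged from 1.80 to 11.0 CPM at day 3.5 (median 5.31) and from 5.12 to 33.3 CPM at day 4 (median 15.6), with a log2 fold change of 1.65 ± 0.25 (SE, edgeR adjusted p = 1.78e-06). At day 3.5 it was ordered the other way from Prrx2 across the authors' classes, at 6.48 ± 1.96 CPM in neural gastruloids (SD, n = 10) and 3.49 ± 0.983 CPM in mesodermal ones (SD, n = 6). From day 4 on its class means were ordered as those of Prrx2. They were 18.1 ± 8.95 CPM in mesodermal gastruloids (SD, n = 14) and 6.89 ± 0.472 in neural ones (n = 2) at day 4, 13.7 ± 4.99 (n = 9) and 2.30 ± 1.34 (n = 7) at day 4.5, and 13.4 ± 6.52 (n = 8) and 4.34 ± 0.788 (n = 4) at day 5.

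Twist1 was measured in every gastruloid from day 3 on. It stood at 16.4 to 42.1 CPM at day 3 (median 22.4, n = 24), 10.1 to 57.8 at day 3.5 (median 17.0) and 17.6 to 164 at day 4 (median 120). The rise to day 4 was 2.24 ± 0.28 on the log2 scale (SE, edgeR adjusted p = 7.73e-08), again with all 16 gastruloids above the earlier median. Twist2 was far lower in counts, at 0.0904 to 1.18 CPM at day 3.5 and 0.438 to 3.01 CPM at day 4, and rose by 1.43 ± 0.26 (SE, edgeR adjusted p = 2.52e-05). Class means of Twist1 were 36.0 and 124 CPM at days 3.5 and 4 in mesodermal gastruloids (n = 6 and 14). In neural ones (n = 10 and 2) they were 14.1 and 18.3 CPM. Those of Twist2 were 0.731 and 1.82 CPM in mesodermal gastruloids and 0.578 and 0.650 CPM in neural ones.

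Six2, like Twist1, had a lower median at day 3.5 than at days 3 and 4. It was present at day 3 (0.853 to 5.95 CPM, median 2.13), lower at day 3.5 (0.222 to 2.17 CPM, median 0.608), and higher at day 4 (0.247 to 21.6 CPM, median 9.43). The day 4 change was 3.76 ± 0.47 (log2, SE, edgeR adjusted p = 8.17e-08) with 14 of 16 gastruloids above the day 3.5 median. Days 3 and 3.5 come from separate pools, so the step between them was not tested. Eya1 rose by 2.83 ± 0.35 (SE, edgeR adjusted p = 4.74e-08), from a median of 1.58 to one of 16.4 CPM. Eya2 rose by 2.33 ± 0.42 (SE, edgeR adjusted p = 1.83e-05), from a median of 0.557 to one of 2.12 CPM, with a highest gastruloid of 11.3 CPM.

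**Figure D1:**
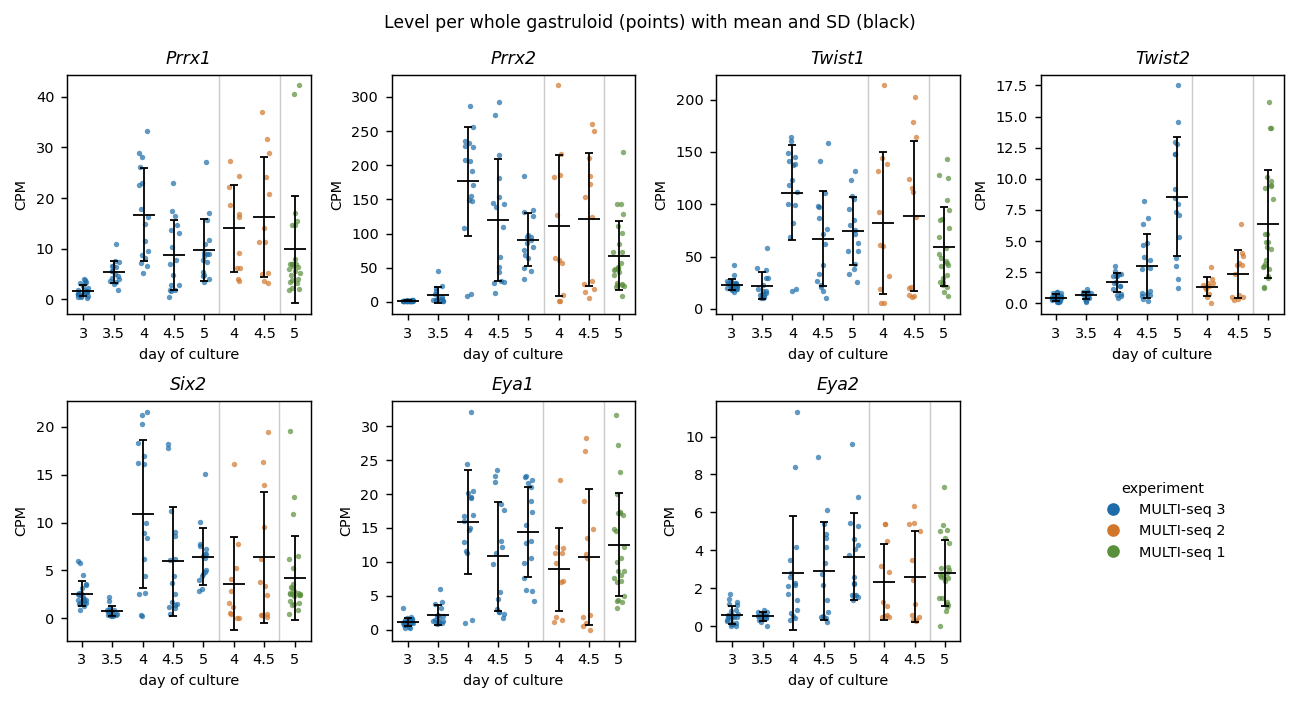
CPM of each member (one panel each, linear axes) in whole gastruloids by day and experiment; points are gastruloids, black bars the mean and SD. Prrx2 reaches 286 CPM at day 4 of MULTI-seq 3, where 2 gastruloids stay at 9.14 and 11.3 CPM, and Twist2 is highest at day 5.

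Genes of the same families and pathways were read from lists of other genes. Of 11 further genes of the network of Six2, Eya, Dach and Pax factors, 10 passed the filter on low counts, 8 rose and 0 fell, with a median log2 fold change of 0.83 beside 0.01 for all genes tested. Pax3, a dermomyotome factor, rose by 3.75 ± 0.41 (SE) and Pax7, its paralogue, by 1.75 ± 0.25. All 10 measured basic helix-loop-helix partners, relatives and Id antagonists rose, with a median of 1.00. The largest of these were Hand2 (4.83 ± 0.73) and Hand1 (2.88 ± 0.75), factors of lateral and pharyngeal mesoderm, and Tcf15 (4.67 ± 0.39), a factor of somite epithelia.

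Of 13 genes of head and branchiomeric mesoderm, 11 passed the filter, 9 rose and 1 fell. Tbx1, Ebf2 and Alx1 rose most, by 4.98 ± 0.67, 4.98 ± 0.61 and 4.39 ± 0.64 (SE). The 4 measured dermomyotome and somite genes rose as well, with a median of 4.11, beside 2.64 for the head and branchiomeric list. Of the lateral plate and limb markers all 4 measured rose (median 2.43), and of 3 measured endothelium markers 2 rose and 1 fell (median 1.49). The part of these other cell types in the members' rise was not tested. Of 10 measured genes of mesenchyme and matrix, 5 rose and 0 fell, with Pdgfra (1.57 ± 0.41), Snai2 (1.51 ± 0.33) and Cdh11 (1.22 ± 0.40) the largest. The 5 neural tube genes that passed the filter held 1 rise and 1 fall.

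Between days 4.5 and 5 of MULTI-seq 3, 1 of the 7 members passed the test in whole gastruloids. Twist2 rose from 0.179 to 8.21 CPM at day 4.5 (median 2.77, n = 16) to 1.23 to 17.5 CPM at day 5 (median 8.24, n = 16). Its log2 fold change was 1.47 ± 0.39 (SE, edgeR adjusted p = 0.0106), with 14 of 16 gastruloids above the earlier median, in a comparison where 6.35% of 12298 genes were called higher. The groups overlapped.

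The 6 other members had log2 fold changes between -0.42 (Prrx2) and 0.38 (Eya1) with adjusted p from 0.429 to 0.923, and the intervals were wide. For Prrx2, the 95% interval ran from -1.05 to 0.22. The authors' classes were 9 mesodermal and 7 neural gastruloids at day 4.5, and 8 mesodermal, 4 intermediate and 4 neural at day 5. The fit was not adjusted for class. Class means of Prrx2 at days 4.5 and 5 were 184 and 117 CPM in mesodermal gastruloids and 37.0 and 48.1 CPM in neural ones. Of the 9 measured network genes, 1 rose, Eya3, by 0.16 ± 0.05 (SE), and none of the 10 head and branchiomeric genes passed. Of 12 mesenchyme and matrix genes 3 rose, led by the collagen genes Col3a1 (2.45 ± 0.42) and Col1a2 (0.93 ± 0.30). Of the 6 measured dermomyotome and somite genes 2 rose, Meox2 (1.52 ± 0.45) and Uncx (1.24 ± 0.25), and 4 did not pass.

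Between days 4 and 4.5 of MULTI-seq 2 (pool B), 6 members passed the filter and 0 passed the test with edgeR or with DESeq2, in a comparison where 7.36% of 11064 genes were called in either direction. None of the 6 had an unadjusted p under 0.05. Twist2 did not reach the filter. Prrx2 there spanned 1.60 to 317 CPM at day 4 (n = 11) and 6.13 to 260 CPM at day 4.5 (n = 12), so gastruloids of 1 day differed by far more than the days did. At day 4 it was 56.4 to 317 CPM in 8 mesodermal gastruloids and 1.60 to 10.2 CPM in 3 neural ones. At day 4.5 it was 125 to 260 CPM in 7 mesodermal gastruloids and 6.13 to 30.4 CPM in 5 neural ones. The fit was not adjusted for class.

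The label of the group was read against the cell types, which the authors named from clusters of gene expression. The levels by type below are therefore descriptions with no test, given as the mean and SD over gastruloids that held at least 10 cells of the type. Head Mesoderm cells held the head mesoderm factor Alx1 at 212 ± 53.8 CPM at day 4 (SD, n = 7), against 20.7 ± 10.2 in Mature Somites (n = 7), and at 108 ± 56.6 at day 5 (n = 7), against 2.86 ± 1.67 (n = 16). Of 13 head and branchiomeric genes, 11 were at 1 CPM or more there at day 4, as many as in Mature Somites and in Cardiopharyngeal Mesoderm. Other markers, named after their values were seen, did not set Head Mesoderm apart at day 4. The pharyngeal factor Tbx1 was at 49.3 ± 21.4 CPM against 89.9 ± 12.9 in Mature Somites, and the mesoderm factor Foxc2 at 65.0 ± 7.93 against 111 ± 15.0. The somite factor Tcf15 was at 327 ± 88.04 CPM in Head Mesoderm against 553 ± 132 in Mature Somites. Among neural crest markers, which mark another source of Twist1 and Prrx1 in the head, Sox10, Foxd3, Tfap2a, Tfap2b and Erbb3 were under 1 CPM in Head Mesoderm at both days. Ets1 and Sox9, which are also on the list, were at 1 CPM or more at both days.

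The members were not restricted to Head Mesoderm. At day 4, 1 of the 7, Twist1, had its highest level in Head Mesoderm, and at day 5 5 of the 7 did, namely Prrx1, Twist1, Six2, Eya1 and Eya2. Prrx2 was highest in Somites and Twist2 in Mature Somites at day 5. This order covers types with at least 5 gastruloids, and Cardiopharyngeal Mesoderm, with 69 cells at day 5, was not among them. After thinning to 5000 UMIs a cell, 29.0% of its cells had a Prrx1 UMI (exact Clopper-Pearson 95% interval 18.7% to 41.2%) against 26.7% in Head Mesoderm (21.3% to 32.7%), and 20.3% a Six2 UMI (11.6% to 31.7%) against 13.8% (9.72% to 18.7%), with overlapping intervals. For Prrx2 the share was 82.6% in Cardiopharyngeal Mesoderm, 72.9% in Head Mesoderm and 61.9% in Mature Somites. The shares of Eya1 and Eya2 were 7.25% and 0% in Cardiopharyngeal Mesoderm against 14.2% and 9.72% in Head Mesoderm. Those of Twist1 and Twist2 were 68.1% and 2.90% against 73.7% and 4.05%. At day 5 of MULTI-seq 1 Twist2 went the other way, at 8.96% of 134 cells against 3.57% of 112. There Twist1, Eya1 and Eya2 were again lower in Cardiopharyngeal Mesoderm. These differences were not tested. Mature Somites was within the 3 highest types for each of the 7 members at day 4 and for 6 of 7, all but Prrx1, at day 5.

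Among types with at least 5 gastruloids, Prrx2 was highest in Somites at days 4 and 5. At day 4 it measured 676 ± 79.2 CPM in Somites (SD, n = 12), 590 ± 64.3 in Mature Somites (n = 7), 415 ± 117 in Cardiopharyngeal Mesoderm (n = 8), 395 ± 45.6 in Early Anterior PSM (presomitic mesoderm, n = 14) and 243 ± 32.9 in Head Mesoderm (n = 7). Somites lay above Mature Somites in 5 of the 7 gastruloids that held both. Levels fell off toward the tail bud types, to 137 ± 25.9 in Early Posterior PSM and 39.2 in Late Posterior PSM, and stood at 2.05 in NMPs (neuromesodermal progenitors). Head Mesoderm lay above Mature Somites in 0 of 7 gastruloids with both at day 4, but in 6 of 7 at day 5. Somites lay above Head Mesoderm in 5 of 7 at day 5.

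Prrx1 was ordered differently. Its highest level at day 4 was in Cardiopharyngeal Mesoderm (72.1 ± 12.3 CPM, SD, n = 8), above Mature Somites in 4 of 4 gastruloids with both, and Notochord (38.0 ± 14.6, n = 7), Head Mesoderm (33.1 ± 7.58, n = 7) and Mature Endoderm (19.4 ± 3.31, n = 14) followed Mature Somites (41.4 ± 13.7, n = 7). The spreads of Mature Somites, Notochord and Head Mesoderm overlapped. In Notochord Prrx2 stood at 7.53 ± 2.07 CPM and in Mature Endoderm at 2.48, which placed both types lower in the order of Prrx2 than in that of Prrx1. In Somites, the type with the highest Prrx2 at both days, Prrx1 was at 18.8 ± 8.01 CPM at day 4 (SD, n = 12), within the spread of Mature Endoderm, and at 2.24 ± 2.18 CPM at day 5 (SD, n = 12).

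At day 5 Prrx1 reached 69.9 ± 20.7 CPM in Head Mesoderm (SD, n = 7), above Mature Endoderm at 24.3 ± 6.05 (n = 9) in all 7 gastruloids with both types and above Mature Somites at 13.6 ± 2.10 (n = 16) in 7 of 7. Endothelium, at 14.7 ± 7.06 (n = 6), did not differ from Mature Somites beyond its spread. In MULTI-seq 1, Prrx1 in Mature Endoderm (23.5 ± 17.7, n = 6) and Mature Somites (17.6 ± 10.6, n = 23) kept that order with overlapping spreads.

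Twist1 was high in several anterior mesodermal types. At day 4 Head Mesoderm (272 ± 24.4 CPM, SD, n = 7), Mature Somites (264 ± 25.3, n = 7) and Early Anterior PSM (244 ± 23.4, n = 14) lay within 1 SD of their neighbour in the order, and Somites (193 ± 34.9, n = 12) lay below Head Mesoderm and below Mature Somites in 7 of 7 gastruloids each. Early Nascent Mesoderm had led earlier, at 50.4 ± 13.4 CPM at day 3 (n = 20) and 53.4 ± 9.22 at day 3.5 (n = 6). At day 3.5 Early Posterior PSM, at 45.5 ± 15.0 (n = 13), did not differ from Early Nascent Mesoderm beyond the spread. At day 5 Head Mesoderm, at 259 ± 39.1 (n = 7), was above Mature Somites, at 175 ± 22.0 (n = 16), in 7 of 7 gastruloids. In neural types Twist1 was low but measured, with 8.97 CPM in Early Spinal Cord and 8.34 in Late Spinal Cord at day 5.

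Twist2 had low levels until day 5. At day 4 Cardiopharyngeal Mesoderm (5.84 ± 6.04 CPM, SD, n = 8) and Mature Somites (5.59 ± 1.66, n = 7) did not differ beyond their spread. At day 5 Mature Somites held 21.4 ± 8.49 CPM (n = 16) and Somites 15.6 ± 6.60 (n = 12), with Head Mesoderm at 9.07 ± 8.03 (n = 7) below Mature Somites in 7 of 7 gastruloids. MULTI-seq 1 gave 23.4 ± 11.0 in Mature Somites (n = 23) and 10.9 ± 8.85 in Somites (n = 13).

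Six2 marked an early mesoderm type and then 3 late ones. At day 3 Early Nascent Mesoderm held 10.4 ± 4.42 CPM (SD, n = 20), above Primitive Streak, at 1.60 ± 0.854, in 20 of 20 gastruloids. At day 4 Mature Somites (49.8 ± 7.99, n = 7), Cardiopharyngeal Mesoderm (35.5 ± 16.0, n = 8) and Head Mesoderm (32.6 ± 8.46, n = 7) led, and at day 5 Head Mesoderm (29.2 ± 8.31, n = 7) stood above Mature Somites (19.7 ± 6.55, n = 16) in 7 of 7. The nephrogenic context of Six2 could be read against intermediate mesoderm markers, of which 3 of 6 were at 1 CPM or more in Mature Somites at day 4, namely Osr1, Pax2 and Lhx1. Osr1, an early kidney and lateral mesoderm factor named after its values were seen, was at 5.05 ± 6.27 CPM there (SD, n = 7) and at 14.7 ± 13.6 CPM in Cardiopharyngeal Mesoderm (SD, n = 8). Pax8, Wt1 and Gata3 were under 1 CPM in Mature Somites at day 4, and so were 5 of 6, all but Lhx1, at day 5.

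Eya1 and Eya2, cofactors of Six2 and its relatives, shared Mature Somites, Head Mesoderm and Mature Endoderm. Eya1 at day 5 measured 34.1 ± 7.75 CPM in Head Mesoderm (SD, n = 7), 31.8 ± 4.74 in Mature Somites (n = 16) and 26.4 ± 11.2 in Mature Endoderm (n = 9), none apart from its neighbour beyond the spread. Eya1 was also present in the presomitic types, at 31.7 ± 11.6 in Late Anterior PSM at day 4 (n = 10). Eya2 was highest in Mature Endoderm at day 4, at 12 ± 3.85 (n = 14), above Mature Somites at 6.26 ± 4.37 in 7 of 7 gastruloids, and was under 1 CPM in Late Anterior PSM. Six2 was under 1 CPM in Mature Endoderm, so there both cofactors were measured with little Six2.

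**Figure D2:**
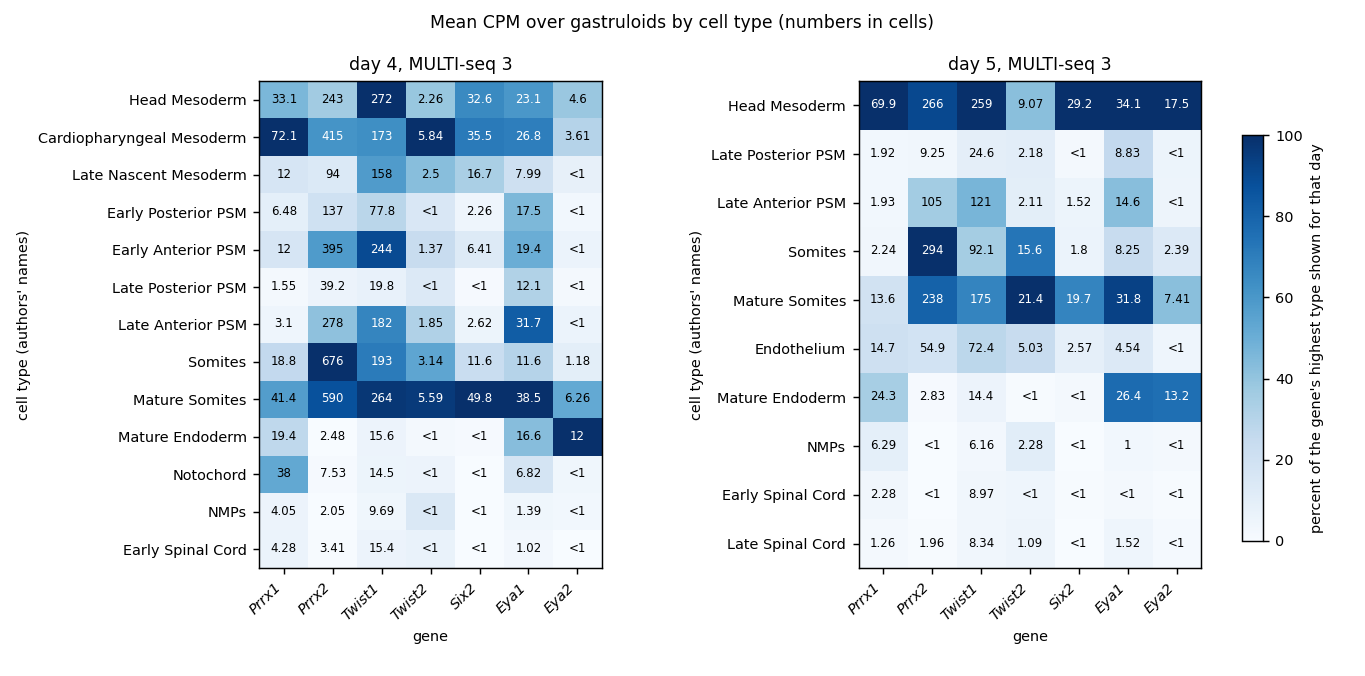
Mean CPM over gastruloids (number in each square) of the 7 members by cell type at days 4 and 5 of MULTI-seq 3, shaded by the percent of the gene's highest type shown for that day. Prrx2 peaks in Somites (676 and 294 CPM) while Prrx1 peaks in Cardiopharyngeal Mesoderm at day 4 (72.1) and, among the types with at least 5 gastruloids, which leave out Cardiopharyngeal Mesoderm, in Head Mesoderm at day 5 (69.9).

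The share of each member's UMIs held by a type shows where its transcripts were. At day 5 of MULTI-seq 3 Mature Somites made up 31.0% of a gastruloid's cells on average and held 84.7% ± 14.9 of Six2 UMIs (SD, n = 16), 73.9% ± 9.91 of Prrx2, 74.2% ± 12.6 of Twist2, 67.8% ± 7.34 of Twist1, 65.7% ± 13.4 of Eya1, 62.1% ± 20.1 of Eya2 and 44.8% ± 15.2 of Prrx1. Head Mesoderm made up 2.25% of cells and held 12% ± 11.2 of Prrx1 UMIs, the largest share of any member there. At day 4 Eya2 had 57.8% ± 16.3 of its UMIs in Mature Endoderm (n = 14 gastruloids with at least 10 Eya2 UMIs), which made up 8.80% of their cells. For the other members no type held more than 30.5% on average at day 4, the share of Prrx2 in Early Anterior PSM, and Mature Somites held from 8.90% of Prrx1 to 19.1% of Six2.

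Cells with at least 1 UMI were counted after each cell was thinned to 5000 UMIs. At day 5, 72.9% of 247 Head Mesoderm cells had a Prrx2 UMI (exact Clopper-Pearson 95% interval 66.9% to 78.3%) and 73.7% a Twist1 UMI (67.7% to 79.1%). In Late Spinal Cord, a type taken as background, the shares were 1.00% and 2.91% of 2098 cells. Median depths were 26567 UMIs in Head Mesoderm and 31399 in Late Spinal Cord, and unthinned shares were 99.6% and 98.8% against 5.77% and 16.3%. Intervals cover counting error only, over cells that share gastruloids.

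Prrx1 was found in 26.7% of Head Mesoderm cells at this depth, against 0.810% in Late Spinal Cord. Twist2 reached 10.8% of 3190 Mature Somites cells (9.73% to 11.9%) and 4.05% of Head Mesoderm cells, against 0.334%. Prrx2 and Twist1 were found in the same cell in 53.8% of Head Mesoderm cells and 33.1% of Mature Somites cells, beside products of their shares of 53.7% and 32.6%. Prrx1 and Prrx2 were found together in 23.1% of Head Mesoderm cells (product 19.5%), and Six2 and Eya1 in 3.64% (product 1.95%), while Prrx1 and Six2 were found together in 1.21% (product 3.68%) and Prrx1 and Twist2 in 0 of 247 cells (product 1.08%). In Head Mesoderm at day 4, Prrx1 and Six2 were found together in 2.33% of 730 cells (product 1.87%) and Prrx1 and Twist2 in 0.137% (product 0.126%), and at day 5 of MULTI-seq 1 in 4.46% (product 7.03%) and 1.79% (product 1.34%) of 112 cells. In these 2 sets of Head Mesoderm cells, Prrx1 and Prrx2 were found together in 11.6% (product 10.3%) and 26.8% (product 26.1%). Six2 and Eya1 were found together in 2.33% (product 1.65%) and 5.36% (product 3.68%) of the same sets. In Mature Somites that pair was found in 3.28% (product 3.60%) at day 4, 1.00% (product 0.993%) at day 5 and 1.28% (product 1.17%) at day 5 of MULTI-seq 1. No test was made of these shares.

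Within a cell type the number of its cells no longer sets the level, so the days of a pool were compared type by type. Between days 3.5 and 4, 4 types could be tested, and Early Posterior PSM, a presomitic type, was the one in which more than 1 member passed the filter. There 4 of the 4 members that passed the filter were called higher, in a comparison where 19.7% of 9605 genes were, while Twist2, Six2 and Eya2 did not reach the filter. Clusters were made by the authors from all cells, so a type can hold different states at different days.

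Prrx2 in Early Posterior PSM ranged from 8.62 to 83.4 CPM at day 3.5 (median 21.0, n = 13) and from 81.1 to 176 CPM at day 4 (median 139, n = 16). The log2 fold change was 1.97 ± 0.18 (SE, edgeR adjusted p = 9.61e-11). The groups touched through 1 gastruloid of day 3.5 that lay above the lowest of day 4. Eya1 went from 0 to 9.72 CPM (median 3.49) to 5.32 to 27.1 CPM (median 17.4), a change of 1.91 ± 0.21 (SE, edgeR adjusted p = 4.07e-09).

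Twist1 started higher and changed less, from 18.2 to 74.6 CPM (median 44.5) to 55.8 to 115 CPM (median 76.2), by 0.62 ± 0.11 (log2, SE, edgeR adjusted p = 1.79e-05). Prrx1 changed by 0.84 ± 0.28 (SE, edgeR adjusted p = 0.0182), from a median of 2.09 to one of 5.22 CPM. For all 4 genes 16 of 16 gastruloids of day 4 lay above the day 3.5 median. In the same cells the summed lateral plate and limb markers had a median of 10.6 CPM at day 3.5 (1.77 to 43.0) and 32.5 at day 4 (16.3 to 58.8), with Hand2 and Tbx4 under 1 CPM on both days, and the sclerotome markers 9.97 and 50.7 CPM, all but Foxc2 under 1 CPM. Their part in the rise was not tested.

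**Figure D3:**
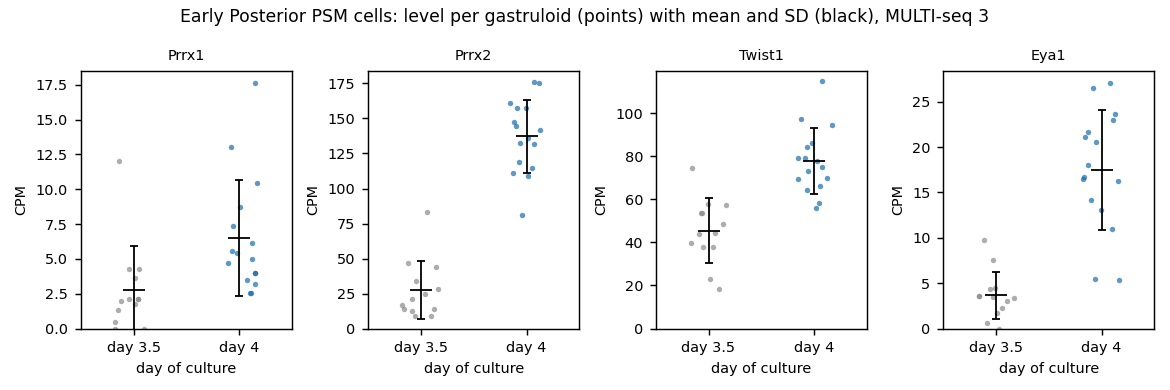
CPM of the 4 members tested in Early Posterior PSM cells, per gastruloid (points) with mean and SD (black), at day 3.5 (n = 13) and day 4 (n = 16) of MULTI-seq 3. Prrx2 medians are 21.0 and 139 CPM, with 1 early gastruloid at 83.4 CPM above the lowest late one at 81.1 CPM.

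In Caudal Epiblast the single member that passed the filter, Twist1, was lower at day 4, by 0.48 ± 0.17 on the log2 scale (SE, edgeR adjusted p = 0.0432, n = 15 and 15; 0.0615 with no filter on low counts), where 10.2% of 8735 genes were called lower. It went from a median of 10.6 to one of 7.35 CPM, levels near those of neural types. In Early Spinal Cord and Primitive Streak, where 2.8% of 6827 and 5.58% of 8262 genes were called, Twist1 again was the member that passed the filter and was not called (adjusted p = 0.330 and 0.400, n = 5 at day 4 in both).

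Mature Somites held the most called members between days 4.5 and 5. It was also the only type in which all 7 members passed the filter, so types differed in how many could be called. Of the 7, 4 were called lower and 1 higher, in a comparison where 7.59% of 10019 genes were called lower and 6.37% higher. Twist2 moved up while the others called moved down.

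Prrx2 in Mature Somites was 298 to 460 CPM at day 4.5 (median 390, n = 13) and 190 to 330 CPM at day 5 (median 223, n = 16), a log2 fold change of -0.78 ± 0.07 (SE, edgeR adjusted p = 7.38e-11). All 16 later gastruloids lay under the earlier median, with a narrow overlap. Prrx1 changed by -0.62 ± 0.11 (SE, edgeR adjusted p = 6.03e-05), from a median of 18.8 (2.50 to 30.4) to one of 13.6 CPM (10.9 to 18), with the later range inside the earlier one. Six2 changed by -0.60 ± 0.14 (SE, edgeR adjusted p = 0.00228), from a median of 28.6 to one of 17.6 CPM.

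Twist1 went from 145 to 260 CPM (median 209) to 147 to 234 CPM (median 171), a change of -0.30 ± 0.06 (SE, edgeR adjusted p = 4.96e-04). Twist2 went from 0 to 19.5 CPM (median 9.18) to 5.64 to 34.2 CPM (median 23.0), a change of 0.91 ± 0.22 (SE, edgeR adjusted p = 0.00346) with 15 of 16 gastruloids above the earlier median. The paralogues thus changed in opposite directions in this type, and their levels were closer at day 5. The log2 ratio of Twist2 to Twist1 per gastruloid rose from -4.66 ± 1.16 (SD, n = 13) to -3.16 ± 0.715 (SD, n = 16), a difference of 1.5 (two-sided permutation p = 1.20e-04, 7.20e-04 after adjustment over 6 ratios chosen after the values were seen), higher than the earlier median in 15 of 16. Both genes had already been called in opposite directions in this type, so the ratio is no separate evidence. It adds 0.5 UMI to each count, and Twist2 reached 0 CPM at day 4.5.

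Eya1 in Mature Somites, at 33.1 ± 5.15 and 31.8 ± 4.74 CPM (SD), did not pass (log2 fold change -0.11, 95% interval -0.26 to 0.04, edgeR adjusted p = 0.404), and Eya2, at 9.80 ± 2.54 and 7.41 ± 2.80, did not either (-0.43, interval -0.74 to -0.11, adjusted p = 0.0738). Ratios of Eya2 to Eya1 and of Prrx2 to Prrx1 differed by -0.41 and -0.38 with adjusted permutation p of 0.0721 and 0.0613. In these cells the summed neural crest markers had a median of 66.5 CPM at day 4.5 (37.9 to 108) and 103 CPM at day 5 (38.5 to 178), with Sox10, Foxd3, Tfap2a, Tfap2b and Erbb3 under 1 CPM on both days, and the sclerotome markers 110 (69.0 to 155) and 122 CPM (92.4 to 216). Their part in these changes was not tested.

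**Figure D4:**
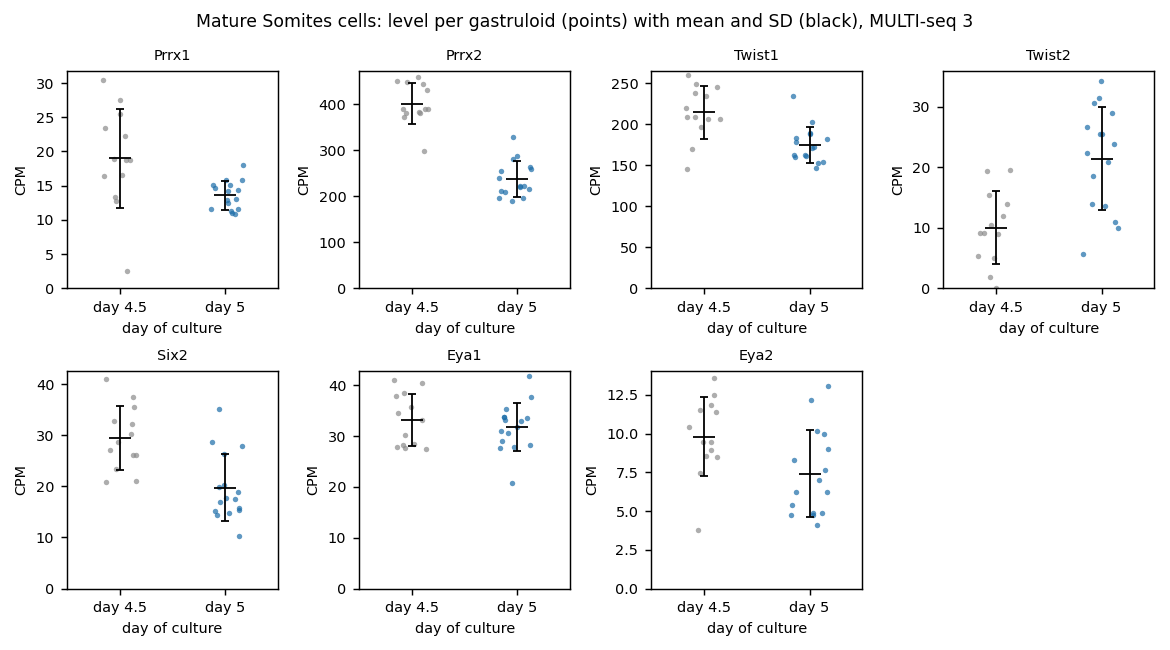
CPM of the 7 members in Mature Somites cells, per gastruloid (points) with mean and SD (black), at day 4.5 (n = 13) and day 5 (n = 16) of MULTI-seq 3, each panel from 0. Prrx2 medians are 390 and 223 CPM, and Twist2 is the member that is higher at day 5 (medians 9.18 and 23.0 CPM).

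Prrx2 was lower at day 5 also in the other somite and presomitic types tested, Somites, Late Anterior PSM and Late Posterior PSM. In Somites it was 435 to 612 CPM at day 4.5 (median 517, n = 10) and 251 to 374 CPM at day 5 (median 280, n = 12), with no overlap, a change of -0.81 ± 0.07 (log2, SE, edgeR adjusted p = 2.46e-11). In Late Anterior PSM it changed by -0.86 ± 0.12 (SE, edgeR adjusted p = 2.43e-06, n = 9 and 15), from a median of 202 to one of 106 CPM. In Late Posterior PSM it changed by -1.23 ± 0.21 (SE, edgeR adjusted p = 3.44e-05, n = 12 and 16), from a median of 19.9 to one of 8.54 CPM. The shares of genes called lower were 1.56% of 6146, 1.51% of 6703 and 3.53% of 7818. In whole gastruloids, by contrast, Prrx2 did not pass (-0.42, adjusted p = 0.429), and the 2 measures were not tested against each other.

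Twist1 differed in direction along the same series of types. In Somites it changed by -0.57 ± 0.10 (SE, edgeR adjusted p = 1.47e-04), from a median of 134 to one of 92.4 CPM, below the earlier median in 12 of 12. In Late Anterior PSM the change of -0.29 ± 0.11 did not pass (adjusted p = 0.158). In Late Posterior PSM Twist1 rose, from 5.96 to 26.0 CPM (median 14.1) to 5.47 to 39.4 CPM (median 24.2), by 0.63 ± 0.17 (SE, edgeR adjusted p = 0.0123), where 3.35% of genes were called higher. Within gastruloids that held both types, the log2 ratio of Late Posterior PSM to Mature Somites rose by 1.01 for Twist1 (adjusted permutation p = 0.00360 over the same 6 ratios, higher in 14 of 16), while those for Prrx2 (-0.37) and Eya1 (-0.01) had adjusted permutation p of 0.328 and 0.991. Twist1 had already been called higher in Late Posterior PSM and lower in Mature Somites, so its ratio is no separate evidence.

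**Figure D5:**
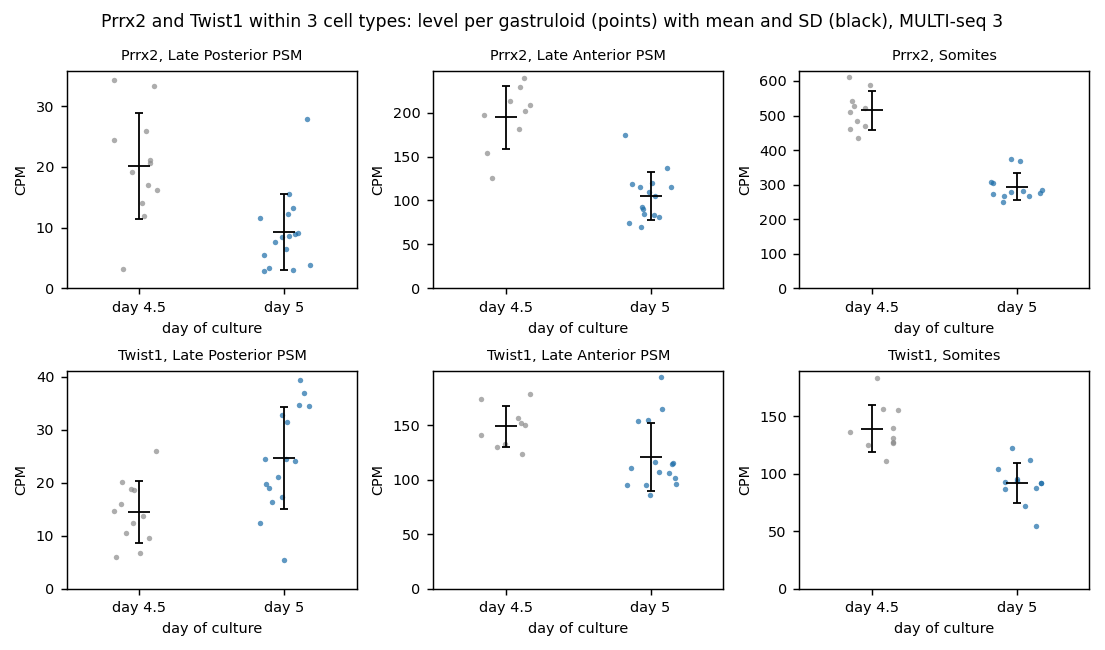
CPM of Prrx2 (top) and Twist1 (bottom) within Late Posterior PSM, Late Anterior PSM and Somites, per gastruloid (points) with mean and SD (black), at days 4.5 and 5 of MULTI-seq 3. Prrx2 is lower at day 5 in all 3 types, whereas Twist1 is higher in Late Posterior PSM (medians 14.1 and 24.2 CPM) and lower in Somites (134 and 92.4 CPM).

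Outside the somite series Mature Endoderm, Early Spinal Cord, Late Spinal Cord and NMPs could be tested between days 4.5 and 5, and no member was called in them. Head Mesoderm was not tested, since 3 gastruloids of day 4.5 held at least 10 of its cells, fewer than the 5 required, and Cardiopharyngeal Mesoderm, Endothelium and Notochord were not tested either. In Mature Endoderm, where 1.63% of 8363 genes were called, Prrx1 went from 23.8 to 42.7 CPM (median 37.2, n = 7) to 16.4 to 34.8 CPM (median 22.8, n = 9), with all 9 under the earlier median, and did not pass (-0.55 ± 0.16, SE, edgeR adjusted p = 0.0839). Eya1, Eya2 and Twist1 there had adjusted p from 0.640 to 0.977. Twist1 was the member that passed the filter in Early Spinal Cord and Late Spinal Cord, where 12.4% of 9061 and 7.79% of 9921 genes were called, and it was not called (adjusted p = 0.785 and 0.816). No member reached the filter in NMPs, where 7.55% of 7378 genes were called.

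In MULTI-seq 2 a single type had enough gastruloids on both days, Late Posterior PSM. There 1.13% of 6275 genes were called, and Prrx2, the member that passed the filter, went from 10.4 to 26.5 CPM at day 4 (median 19.4, n = 6) to 4.69 to 20.04 CPM at day 4.5 (median 10.1, n = 8) without passing (-0.74 ± 0.28, SE, edgeR adjusted p = 0.236).

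Experiments were then compared at the same day. At day 5, 4 of 7 members were higher in MULTI-seq 3 than in MULTI-seq 1, Six2 by 0.81 ± 0.28, Prrx2 by 0.64 ± 0.26, Eya2 by 0.61 ± 0.26 and Twist1 by 0.55 ± 0.24 (log2, SE, edgeR adjusted p = 0.0112, 0.0270, 0.0410 and 0.0427, n = 16 and 24). In the same comparison 30% of 11718 genes were called higher. MULTI-seq 1 held 7 mesodermal, 9 intermediate and 8 neural gastruloids, against 8, 4 and 4 for MULTI-seq 3. The fit had no term for class, and the part of class was not tested. Class means of Prrx2, with MULTI-seq 3 first, were 117 and 123 CPM (mesodermal), 82.3 and 62.4 (intermediate), and 48.1 and 24.6 (neural). Those of Six2 were 8.16 and 7.94, 5.63 and 3.48, and 3.74 and 1.79 CPM. Without lane C of the day 4.5 and 5 pool, 2 members were called, as Twist1 (adjusted p = 0.0689) and Eya2 (0.0693) were lost. All 16 gastruloids of MULTI-seq 3 were above the MULTI-seq 1 median for Six2, which ranged from 2.87 to 15.1 against 0.424 to 19.6 CPM. Mature Somites made up 31.0% of cells in MULTI-seq 3 and 18.2% in MULTI-seq 1, and its part was not tested. Within Mature Somites the levels were 238 ± 38.9 and 253 ± 69.6 CPM for Prrx2 and 19.7 ± 6.55 and 17.9 ± 9.13 CPM for Six2 (SD, n = 16 and 23).

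At days 4 and 4.5 no member was called between MULTI-seq 3 and MULTI-seq 2 with edgeR or DESeq2. In these comparisons 46.1% of 13713 and 42.5% of 11695 genes were called with edgeR. Intervals were wide, and for Prrx2 the 95% interval ran from -0.50 to 1.41 at day 4 and from -0.93 to 0.94 at day 4.5. MULTI-seq 3 held 14 mesodermal and 2 neural gastruloids at day 4, and 9 and 7 at day 4.5. MULTI-seq 2 held 8 and 3 at day 4, and 7 and 5 at day 4.5. The fits were not adjusted for class. Unadjusted p was under 0.05 for 0 members at day 4 and for 1 at day 4.5, Prrx1, which spanned 0.477 to 23.0 CPM in MULTI-seq 3 and 3.27 to 37.1 CPM in MULTI-seq 2. Experiment, depth and handling cannot be told apart in these comparisons.

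Genes with the most similar pattern were ranked by Pearson's r of log2(mean CPM + 1) over 64 combinations of type, day and experiment, among 12065 genes, as a description over points that share gastruloids and lanes. For Prrx2 they were Sdk2 (r = 0.925), Tcf15 (0.924) and Col26a1 (0.920), and for Twist1 Prrx2 (0.908), Pappa (0.905) and Abca9 (0.889). For Prrx1 they were Prdm1 (0.855), Gsn (0.832) and Tbx1 (0.825), and Prrx1 and Prrx2 had an r of 0.416 with each other. For Twist2 they were Uncx (0.880), Bmp3 (0.860) and Ebf2 (0.839), and for Six2 Gm12829 (0.908), Itih5 (0.903) and Abca9 (0.875). For Eya1 they were Phlda1 (0.899) and Reck (0.888), and for Eya2 Parm1 (0.881), Sema3f (0.864) and Corin (0.850).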

How the data were processed

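UMI counts for 32285 genes per cell barcode were deposited by the authors; Cell Ranger 6.0.0, Seurat and the mm10 build are named in the submitters' processing notes. Lanes held 64703013 to 307883815 UMIs, the median cell 8287 to 38443, and 2 lanes shared at most 15 barcodes. Cell types, days, gastruloid barcodes and gastruloid classes came from the authors' deposited cell table. Cells called negative, doublet or unidentifiable were left out, no doublet caller was run, and 53730 of 77674 cells belonged to 136 gastruloids. Counts were summed per gastruloid over lanes (at least 30 cells, 135 gastruloids) or per gastruloid and type (at least 10 cells, 5 gastruloids a group). These sums hold 1293296 to 57333371 UMIs per gastruloid.

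Sums were tested with edgeR 4.0.16 (TMM, filterByExpr, quasi-likelihood, Benjamini-Hochberg over all genes tested), which weights gastruloids by depth, so a fold change can differ from the ratio of means; the script was tested on simulated data. Permutation tests drew 100000 resamples. Gastruloids are separate aggregates of 1 line. Alternatives were DESeq2 1.42.0, no filter, at least 100 cells, at least 20 cells of a type, no Head Mesoderm cells and each lane left out. The named genes are all members, up to 3 called genes per list and direction with the largest change, and 3 similar genes per member. The members and lists were chosen with earlier results of these data known. MULTI-seq 2 was not analysed here before day 4, and its gastruloids all come from pool B, since the authors' cell table calls every cell of pool C unidentifiable. Results of some genes that this rule would name are not reported here.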

Additional observations from a re-analysis of the deposited data

Results flagged for a closer look

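Twist1 differed between 2 cell types under the same contrast. From day 4.5 to day 5 of MULTI-seq 3 its log2 ratio of Late Posterior PSM to Mature Somites, taken within gastruloids, rose by 1.01, from -3.94 ± 0.571 (SD, n = 11) to -2.92 ± 0.754 (SD, n = 16), with a two-sided permutation p of 0.00120 and 0.00360 after adjustment over 6 ratios chosen after the values were seen. The ratio was above the earlier median in 14 of 16 gastruloids. Twist1 had already been called in each type, in opposite directions, so the ratio is no separate evidence. None of 20 groups of 4 to 10 gastruloids within types held a sample far enough from the others to be singled out.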

How the results depend on the processing

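The levels of each member in its 3 highest types at days 4 and 5 of MULTI-seq 3 stayed within 1 SD under pooling, a higher cell minimum where it could be met, and means over cells (115 of 115 values). Of member changes in whole gastruloids under the alternatives, 161 kept direction and call, 8 lost the call, 4 gained it and 1 turned. Within types 75 kept both, 1 lost the call and 2 turned. The 3 that turned had not passed the test: Prrx1 in whole gastruloids between days 4.5 and 5 became -0.012 without cells named Head Mesoderm, and with DESeq2 Twist1 became -0.062 in Early Spinal Cord and -0.019 in Mature Endoderm. In the 3 comparisons of MULTI-seq 2 with itself or with MULTI-seq 3, 12 of 20 uncalled member changes turned under at least 1 alternative and 0 passed.

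Between MULTI-seq 3 and MULTI-seq 1, 2 members were called with no filter on low counts (more genes tested), and 2 to 5 when each lane was left out. Twist1 lost its call there with DESeq2 (adjusted p = 0.0523), with no filter (0.0531), and without lane 1 (0.0522) or lane 2 (0.0545) of MULTI-seq 1 or lane C of MULTI-seq 3 (0.0689). Eya2 lost it with no filter (0.0526) and without lane 1 (0.0849) or lane C (0.0693), and Twist2 gained it with DESeq2 (0.0434) and without lane 1, lane 3 (0.0164) or lane A. The cause was not tested. Between days 4 and 4.5 of MULTI-seq 2, 814 genes were called with both lanes of pool B, 535 without lane 2 and 340 without lane 3, where fewer cells remain. Between days 3.5 and 4, 6 to 7 members were called when each lane was left out. Every member that passed the filter on low counts in these fits was called. No paired analysis was possible because lane numbers split 1 pool and gastruloids carry no number shared across days.

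Among the day comparisons run within types, Twist2 and Six2 reached the filter only in Mature Somites, and Eya2 only in Mature Somites and Mature Endoderm. A low level and a low depth cannot be told apart there.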
